A study of Mus musculus with 4 samples.

Results

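The Hox genes of clusters A to D were measured in mouse embryos labelled as null for nucleoredoxin (the gene Nxn, called NRX in the labels; its product is a relative of thioredoxin) and in wild-type embryos. Members were taken by name, from probes outside the controls whose gene name was Hoxa, Hoxb, Hoxc or Hoxd followed by a number from 1 to 13. Those described here have 48 probes of 41174, for 37 genes of 27670 genes or transcripts on the arrays. Hoxc11 had no probe under that name. The groups were NRX -/- and NRX +/+ embryos, both on C57BL/6J, taken at the embryonic days labelled E9.5 and E11.5. The titles write KD for the NRX -/- RNA. Each stage had 2 two-colour Agilent arrays with the dyes exchanged, and each array set the null against the wild type of its stage. The null RNA was labelled with Cy5 on replicate 1 and with Cy3 on replicate 2. The labels describe whole embryos and name neither the number of embryos pooled nor separate extracts for the arrays of a stage. The p-values below therefore compare the RNAs hybridised with the spread between arrays, which may be technical.

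Hox proteins are homeodomain transcription factors that give body segments their identity along the head-to-tail axis. In the mouse their genes lie in 4 clusters, A on chromosome 6, B on chromosome 11, C on chromosome 15 and D on chromosome 2, and genes at the same position in different clusters form a paralogue group, numbered from 1 to 13. Low numbers are switched on early and reach far forward, to the hindbrain, whereas high numbers come on later in the tail end, the limb buds and the genital region. Wnt signals, retinoic acid and the caudal-related Cdx factors act on the clusters, which Polycomb proteins keep silent and Trithorax proteins keep active. Below, groups 1 to 3 are called anterior, groups 4 to 8 central and groups 9 to 13 posterior.

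Promoter windows are shown for the members with the lowest ratios at E9.5 among those that had an entry. The windows hold 300 bases around the annotated start, most of them upstream, written 5′ to 3′ on the gene's strand, and come from RefSeq on GRCm38.p6. Of the 37 members, 22 had an entry, in 24 windows, among them no posterior member of cluster B or C. Capitals mark matches, on either strand, to TTTATG (letters found in Cdx sites), CTTTGA (Tcf and Lef sites, through which Wnt signals act) and TGATTNAT (joint Hox and Pbx sites). No matches to different motifs overlapped in the members' windows.
Hoxd13, chr2:74667975-74668274, plus strand: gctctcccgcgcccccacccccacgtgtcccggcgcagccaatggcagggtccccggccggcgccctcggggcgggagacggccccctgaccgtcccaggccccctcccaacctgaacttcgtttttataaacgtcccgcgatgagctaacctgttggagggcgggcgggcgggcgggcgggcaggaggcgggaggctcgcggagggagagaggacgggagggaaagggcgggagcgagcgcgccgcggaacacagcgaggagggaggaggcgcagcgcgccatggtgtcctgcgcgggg
Hoxa10, chr6:52234890-52235189, minus strand: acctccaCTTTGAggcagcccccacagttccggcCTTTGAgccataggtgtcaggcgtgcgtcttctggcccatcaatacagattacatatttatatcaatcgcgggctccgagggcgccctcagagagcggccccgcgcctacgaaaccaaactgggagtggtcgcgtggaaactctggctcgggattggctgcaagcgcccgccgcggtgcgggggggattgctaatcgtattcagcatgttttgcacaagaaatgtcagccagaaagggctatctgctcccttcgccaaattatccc
Hoxa11, chr6:52245761-52246060, minus strand: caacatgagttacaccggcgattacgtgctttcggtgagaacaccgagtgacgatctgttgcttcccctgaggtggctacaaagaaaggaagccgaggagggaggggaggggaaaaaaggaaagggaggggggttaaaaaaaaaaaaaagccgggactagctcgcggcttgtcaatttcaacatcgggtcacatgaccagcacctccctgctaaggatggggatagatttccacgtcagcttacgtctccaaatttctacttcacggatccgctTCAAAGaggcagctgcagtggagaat
Hoxd10, chr2:74691641-74691940, plus strand: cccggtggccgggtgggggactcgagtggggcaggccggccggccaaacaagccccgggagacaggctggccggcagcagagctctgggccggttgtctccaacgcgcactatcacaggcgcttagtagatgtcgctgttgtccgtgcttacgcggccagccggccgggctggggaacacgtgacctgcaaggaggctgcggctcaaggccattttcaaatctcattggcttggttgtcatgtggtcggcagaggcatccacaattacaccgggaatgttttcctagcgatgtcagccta
Hoxb8, chr11:96281655-96281954, plus strand: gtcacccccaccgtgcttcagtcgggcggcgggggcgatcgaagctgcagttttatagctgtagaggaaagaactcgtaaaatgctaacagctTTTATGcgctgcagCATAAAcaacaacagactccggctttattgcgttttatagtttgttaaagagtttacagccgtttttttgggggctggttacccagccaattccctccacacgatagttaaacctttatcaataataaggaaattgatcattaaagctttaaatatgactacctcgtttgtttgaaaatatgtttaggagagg
The window of Hoxa10 held 2 matches to CTTTGA and that of Hoxa11 held 1, while that of Hoxb8 held 2 matches to TTTATG. Those of Hoxd13 and Hoxd10 held none of the 3 sets of letters. Hoxa10 has another annotated start, whose window held none either. Over all 24 member windows, 5 held TTTATG (20.8%), 4 held CTTTGA (16.7%) and 2 held TGATTNAT (8.33%). Among the 32851 windows of the same length in the table, the shares were 11.9%, 16% and 3.22%. A match is a description of letters, not of a site in use.

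Nxn itself was read to check the direction of the labels. Its brighter probe gave log2 ratios of null over wild type of -1.04 and -0.93 at E9.5 and of -1.24 and -1.42 at E11.5, so the null channel held 50.4% and 39.8% of the wild-type signal (adjusted p = 4.58e-10 and 2.02e-11). A second probe gave means of -0.81 and -1.16. The direction is that of the labels, but neither probe shows an absence of Nxn RNA. The source of the remaining signal was not tested. Nxn lies on chromosome 11, as does cluster B. Between 48.1% and 70.3% of gene probes were well above background per channel, and between 27 and 37 of the 37 members were. All 4 arrays were on 1 slide with 1 scan time. Across the 34 members tested, the ratios of the 2 arrays correlated at 0.64 for E9.5 and at -0.17 for E11.5, with Pearson's r given as a description over genes, which are not replicates. For all 17160 genes tested these values were 0.48 and 0.26. The 2 arrays with the null RNA in Cy5 correlated at 0.37 over the members across stages, and the 2 with it in Cy3 at 0.094.

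A gene was tested if its probe was well above background on both arrays of a stage in at least 1 genotype. Hoxa13, Hoxc13 and Hoxd12 failed this and were left out. Hoxa13 and Hoxc13 were well above background only in 1 wild-type channel at E11.5, and Hoxd12 only in 1 null channel at E9.5 and 1 wild-type channel at E11.5. The 34 tested members all passed in the null channel at E11.5, so none entered only through the wild-type signal at E9.5. Hoxb13 and Hoxc12 passed in the null at E11.5 alone. A member is called lower or higher below when its mean ratio differed from 0 beyond the spread between arrays, by limma. The threshold was 0.05 after Benjamini-Hochberg adjustment over all 17160 genes. In this text, the spread tested against is what the fit leaves. Its dye term takes up the difference between dye-exchanged arrays that both stages share. With 1 residual and 18.4 prior degrees of freedom, what is left rests mostly on other genes. The SDs given can be far larger: for Hoxd3 at E9.5 the SD was 1.61 and the standard error in the fit 0.16.

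At E9.5, posterior Hox RNA was lower in the null embryos, while the medians of the anterior and central members lay near 0. Of the 12 posterior members tested, 11 were called lower and 0 higher, and all 12 were below 0 on both arrays. For Hoxb13, 1 of these 12, neither genotype was well above background at this stage. Over all genes tested, 14.8% were called lower, 9.88% higher, and 27.5% were lower on both arrays. The median log2 ratio of the posterior members was -0.57, against -0.03 for the 7 anterior, -0.09 for the 15 central and -0.00 for all genes. The posterior median was -0.65 on replicate 1 and -0.59 on replicate 2. It was -1.01 when the log ratio of Feature Extraction was used in place of background correction with an offset, and -0.95 when both genotypes had to be above background, which drops the dimmest members. In RNA from whole embryos, fewer cells of a type and less RNA per cell cannot be told apart.

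**Figure D1:**
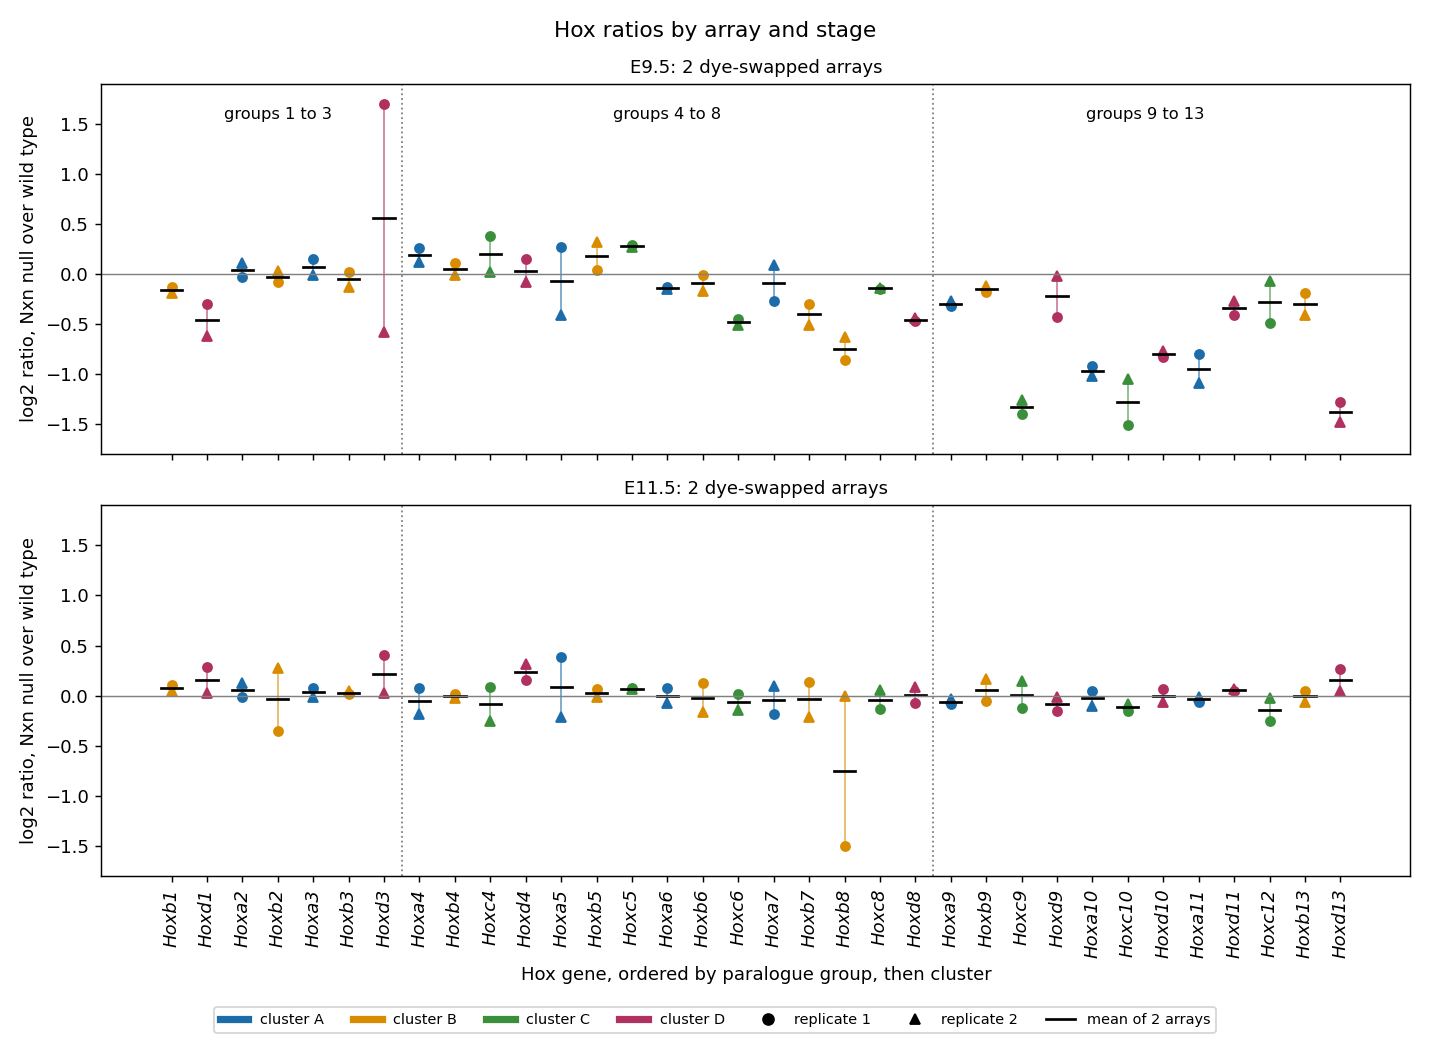
Log2 ratio of Nxn-null over wild type for each of the 34 tested Hox genes (x axis, by paralogue group and then cluster) on the 2 arrays at E9.5 (top) and at E11.5 (bottom). Points are arrays, black bars their mean and colours the clusters. At E9.5 all 12 genes to the right of the second dotted line lie below 0 on both arrays, and at E11.5 their means lie between -0.14 and 0.16.

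Hoxd13, the last gene of cluster D and needed for digits and the genital tubercle, had the lowest ratio. Its log2 levels at E9.5 were 7.96 and 8.09 in the null channels and 9.23 and 9.56 in the wild-type channels, so the groups did not overlap. The ratio was -1.37 ± 0.14 (SD, n = 2 arrays), or 38.6% of wild type (adjusted p = 8.07e-13). A dimmer Hoxd13 probe, which neither genotype lifted well above background at E9.5, read -0.22, and the mean of both probes was -0.80. Hoxc9, which acts in thoracic vertebrae and motor neurons, measured 9.98 and 10.17 in the null and 11.38 and 11.43 in the wild type. Its ratio was -1.33 ± 0.10, or 39.8% of wild type (adjusted p = 1.81e-12). Hoxc10, a gene of the lumbar and hindlimb region, read 6.59 and 6.99 in the null, where it was not well above background, and 8.09 and 8.04 in the wild type. The null therefore has only a bound, and Hoxc10 was at least 2.43-fold lower (measured ratio -1.28 ± 0.32, adjusted p = 1.67e-11). "At least" here sets the wild-type mean against the higher of the dim probe's own signal and the lowest signal well above background on each array. For Hoxc10 the probe's own signal was the higher, so the bound equals the measured mean ratio. The same holds for each bound given below except that of Prl8a2. Such a bound is no more cautious than the mean, and a single array can lie under it. The 2 arrays gave -1.51 and -1.05.

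Hoxa10, which with its paralogues specifies lumbar vertebrae, read 9.06 on replicate 1 and 9.10 on replicate 2 in the null, and 9.98 and 10.12 in the wild type. The ratio was -0.97 ± 0.07 (SD, n = 2 arrays), or 51.1% of wild type (adjusted p = 2.43e-10). Hoxa11, a gene of the sacral region, forearm and kidney, read 9.19 and 9.28 in the null and 9.99 and 10.37 in the wild type. Its ratio was -0.95 ± 0.20 (adjusted p = 1.24e-09). Hoxd10, which acts in lumbar motor neurons and the limb, read 8.62 in both null channels and 9.44 and 9.39 in the wild type. Its ratio was -0.80 ± 0.04 (adjusted p = 7.14e-09). For each of these 6 genes, every null channel at E9.5 lay below every wild-type channel. The same held for 20 of the 34 members tested, 11 of them posterior, so it does not set these 6 apart. The share of all genes was counted neither for this nor for the next statement. For this one it can be at most the 27.5% of genes lower on both arrays at E9.5. For the next it can be at most the 14.8% called lower. These 6, and no other member, were called lower at E9.5 under every alternative setting and without each array in turn.

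**Figure D2:**
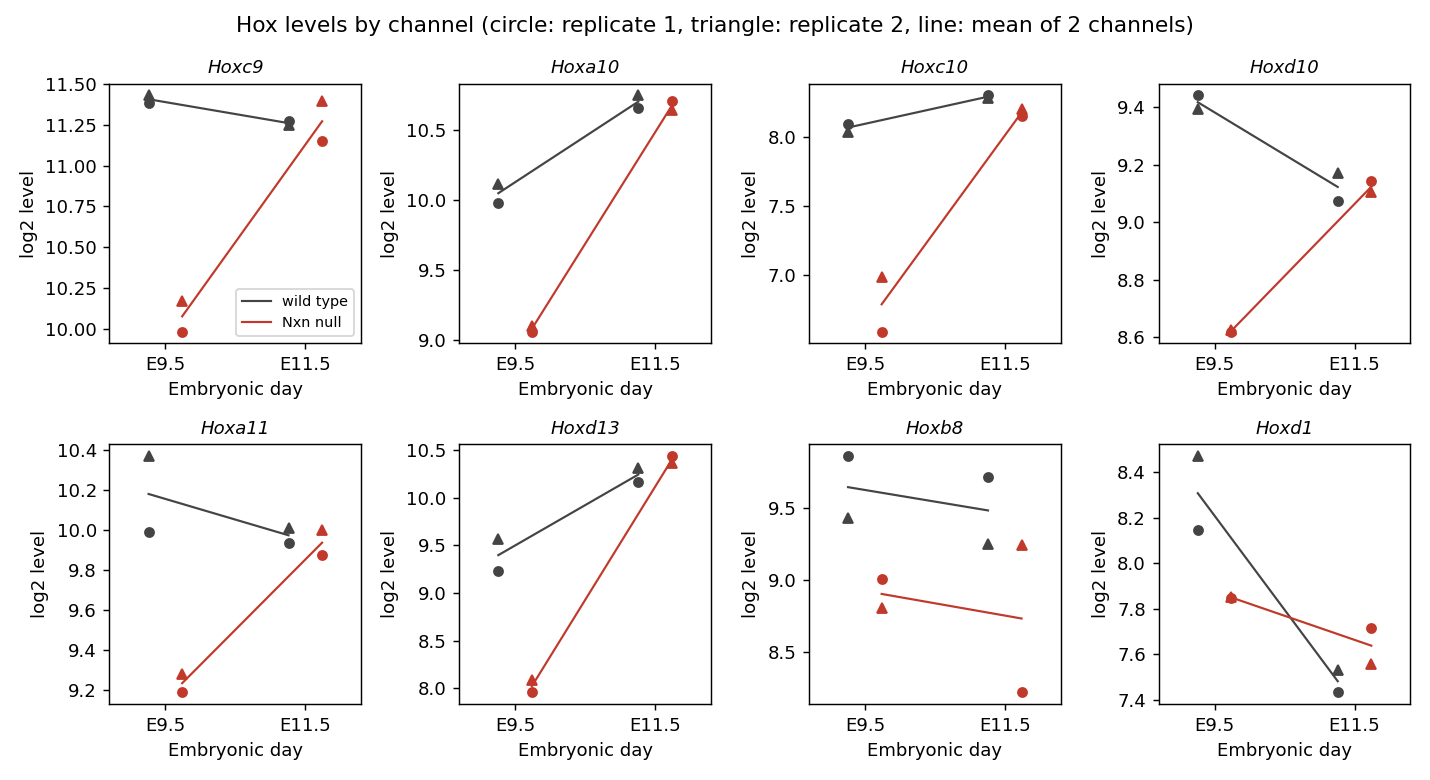
Log2 level (y axis, after background correction and normalization between arrays) of 8 Hox genes at E9.5 and E11.5 (x axis) in the wild-type (grey) and Nxn-null (red) channels, with a point for each channel and a line through the means. In Hoxc9, Hoxa10, Hoxc10, Hoxd10, Hoxa11 and Hoxd13 the genotypes are apart at E9.5 and together at E11.5, and in Hoxb8 at E11.5 only the null channel of replicate 1 is low.

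The other posterior members called lower at E9.5 had smaller ratios: Hoxd11 at -0.34 ± 0.10, Hoxb13 at -0.30 ± 0.16, Hoxa9 at -0.30 ± 0.03, Hoxc12 at -0.28 ± 0.29 and Hoxd9 at -0.22 ± 0.29 (SD, n = 2 arrays; adjusted p from 0.000405 to 0.0164). For Hoxc12 and Hoxd9 the arrays lay far apart, with -0.49 and -0.07 for Hoxc12 and -0.43 and -0.02 for Hoxd9. Neither genotype had Hoxb13 well above background at E9.5, so it has no fold there. Hoxc12 was above background on 1 of the 2 wild-type channels and on no null channel, so the size of its difference is not fully measured. Hoxb9 was the posterior member not called (-0.15 ± 0.04, adjusted p = 0.101). These 5 smaller differences were not called without the dye term.

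Over all Hox members, 16 were called lower and 4 higher at E9.5, against 14.8% and 9.88% of all genes. The share called higher is near that of all genes. Without a dye term the count of lower members was 6, with median centring in place of loess it was 8, and with 1 array left out, which also drops the dye term, it was 6 or 7. The median of all 34 members was -0.15. By the 2-fold rule of the series' design text, 3 members were lower at E9.5, namely Hoxd13, Hoxc9 and Hoxc10, and 0 higher, against 0.752% and 0.0874% of all genes. With the log ratio of Feature Extraction the count lower was 7.

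Central members, which pattern the neck and thorax, were mixed: of 15 tested, 4 were called lower and 3 higher at E9.5. Over all genes the shares were 14.8% and 9.88%. Hoxb8, a gene of the trunk that also marks early blood cells, gave ratios of -0.86 and -0.63 on the 2 arrays, a mean of -0.74 ± 0.16 (SD, n = 2 arrays, adjusted p = 8.11e-05). Its second probe was not well above background on any channel. The other 3 were Hoxc6 at -0.48 ± 0.04, Hoxd8 at -0.46 ± 0.02 and Hoxb7 at -0.40 ± 0.15. Within the central class the called lower members thus belonged to groups 6, 7 and 8, and those called higher to groups 4 and 5. No central member stayed called at E9.5 without the dye term.

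Hoxc5 gave 0.29 and 0.26 on the 2 arrays, a mean of 0.28 (adjusted p = 0.00222). Hoxc4 gave 0.38 and 0.02, a mean of 0.20 (adjusted p = 0.0222), and Hoxa4 gave 0.26 and 0.12, a mean of 0.19 (adjusted p = 0.0347). Hox4 and Hox5 proteins act in the neck and the lung bud. Hoxb5, the highest of cluster B, gave 0.04 and 0.32, with a mean of 0.18 that was not called (adjusted p = 0.0643). None of these was called without the dye term. The remaining central members, Hoxd4, Hoxb4, Hoxa5, Hoxa7, Hoxb6, Hoxa6 and Hoxc8, had means from 0.05 to -0.14 and were not called.

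Among the 7 anterior members, 1 was called lower and 1 higher at E9.5, near the 14.8% and 9.88% of all genes. Hoxd1, the member called lower, gave -0.30 and -0.62, a mean of -0.46 ± 0.23 (SD, n = 2 arrays, adjusted p = 1.1e-05). It was not called without the dye term or with median centring. Hoxb1, a gene of the hindbrain, had a mean of -0.16 and was not called (adjusted p = 0.0671). Hoxd3, called higher at 0.56 (adjusted p = 0.0171), has no settled direction: replicate 1 gave 1.70 and replicate 2 gave -0.58. Its wild-type channel read 7.05 on replicate 1 and 8.68 on replicate 2, while the null channels read 8.75 and 8.10. Without replicate 1 the value was -0.58, and with the log ratio of Feature Extraction it was -0.54. Hoxa2, Hoxa3, Hoxb2 and Hoxb3 had means from -0.05 to 0.07 and were not called.

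Read by paralogue group, the median ratio at E9.5 was -0.31 in group 1, 0.01 in group 2, 0.07 in group 3, 0.12 in group 4 and 0.18 in group 5. It was -0.14 in group 6, -0.24 in group 7, -0.46 in group 8, -0.26 in group 9, -0.97 in group 10, -0.64 in group 11, -0.28 in group 12 (Hoxc12 alone) and -0.84 in group 13. From group 5 to group 8 the medians went down with each step, and the lowest lay in groups 10 and 13. Across the 34 members, the ratio and the paralogue number correlated at -0.64 (Pearson) and -0.68 (Spearman) at E9.5, and at -0.24 and -0.33 at E11.5. These are descriptions over genes that share the same arrays. The E9.5 ratio and the mean brightness of the probe correlated at -0.02 (Pearson).

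**Figure D3:**
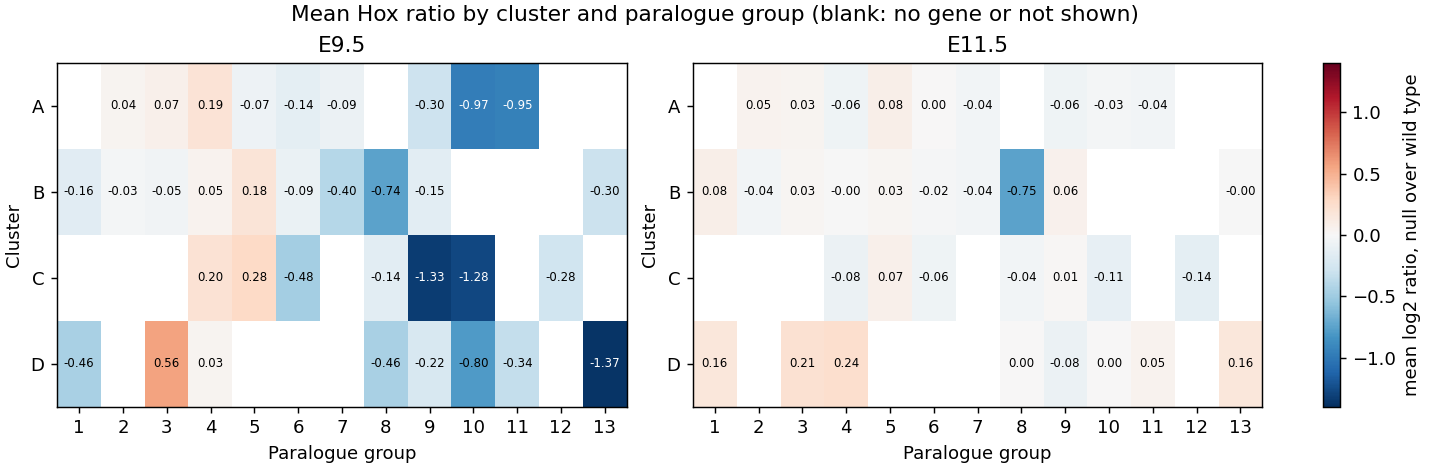
Mean log2 ratio of Nxn-null over wild type for each tested Hox gene, with clusters A to D as rows and paralogue groups as columns, at E9.5 (left) and at E11.5 (right). Blue is lower in the null and red higher. At E9.5 the darker blue cells, from Hoxb8 at -0.74 to Hoxd13 at -1.37, lie in groups 8, 9, 10, 11 and 13, and at E11.5 the cell furthest from 0 is Hoxb8 at -0.75.

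By cluster, the median ratio at E9.5 was -0.09 in A, -0.12 in B, -0.28 in C and -0.40 in D. The order of C and D turned with the setting. With the Feature Extraction log ratio C stood at -1.01 and D at -0.61, with median centring C stood at -0.42 and D at -0.35, and with both genotypes above background at -0.48 and -0.46. Without E9.5 replicate 1 C stood at -0.14 and D at -0.51, and without E9.5 replicate 2 at -0.45 and -0.42. The posterior members of a cluster differed more: the median was -0.95 over 3 genes in A, -0.22 over 2 in B, -1.28 over 3 in C and -0.57 over 4 in D. Within each paralogue group the members were also unequal. In group 9, Hoxc9 stood at -1.33 while Hoxa9, Hoxd9 and Hoxb9 stood between -0.30 and -0.15. In group 13, Hoxd13 stood at -1.37 and Hoxb13, near the background, at -0.30. In group 10 the 3 members lay closer together, from -1.28 to -0.80. No test was made between clusters.

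At E11.5 the posterior members were near the wild-type level. Their median ratio was -0.02, the lowest was Hoxc12 at -0.14 and the highest Hoxd13 at 0.16, and 0 of 12 were called, whereas 5.64% of all genes were called lower and 3.67% higher. The medians of the anterior and central members were 0.05 and -0.02. Those of clusters A, B, C and D were -0.03, -0.00, -0.06 and 0.11. Of all 34 members, 1 was called lower and 1 higher. No member passed the 2-fold rule, against 0.152% of all genes lower and 0.0524% higher.

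The member called lower at E11.5 was Hoxb8, with -1.50 on replicate 1 and -0.01 on replicate 2 (mean -0.75, adjusted p = 0.00017). Its null channel read 8.22 on replicate 1 and 9.25 on replicate 2, while the wild-type channels read 9.72 and 9.25. The mean is close to that at E9.5, but at E11.5 it comes from 1 array, and it was not called without the dye term or with the log ratio of Feature Extraction. Hoxd4, a gene of the neck, was called higher, with 0.15 and 0.32 on the 2 arrays (mean 0.24, adjusted p = 0.0344). It stayed called under 1 of 8 alternatives. Of the other members with the lowest or highest ratio of their cluster, Hoxa5 gave 0.38 and -0.21, Hoxa9 gave -0.09 and -0.04, Hoxb1 gave 0.11 and 0.05, Hoxc5 gave 0.08 and 0.07, Hoxc12 gave -0.26 and -0.02, and Hoxd9 gave -0.15 and -0.01. None of these was called.

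The change of the ratio between the stages was tested as a contrast in the same fit. It was positive beyond the array spread for 12 members, 8 of them posterior, and negative for 1, against 8.32% and 5.23% of all genes. The largest was that of Hoxd13, whose ratio was 1.53 higher at E11.5 than at E9.5 (log2, adjusted p = 6.79e-11). Hoxc9 followed at 1.34 (adjusted p = 6.2e-10), Hoxc10 at 1.16, Hoxa10 at 0.94, Hoxa11 at 0.91 and Hoxd10 at 0.80. Hoxc4 was the member with a negative change, at -0.28. Without the dye term 3 members had a positive change that was called, and with 1 array left out 2 to 4 did.

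A genotype effect shared by both stages, with the 2 arrays of a stage averaged into 1 replicate, was found for 0 of 34 members by limma. The smallest adjusted p was 0.395, for Hoxb8. At an unadjusted p under 0.05 there were 3 members, Hoxb8, Hoxc12 and Hoxd3, against 7.23% of all genes, and over all genes too the adjusted test called 0. Lower on all 4 arrays were 6 members, namely Hoxa9, Hoxa11, Hoxb8, Hoxc10, Hoxc12 and Hoxd9, against 10.5% of all genes.

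Levels at the 2 stages were set side by side for each gene through its own probe. Each array held 1 stage, so stage and array cannot be told apart, and the arrays of a stage were averaged. With the changes in both genotypes as the 2 values tested, 8 members were higher at E11.5 and 4 lower, against 21% and 21% of all genes. The share higher is near that of all genes and the share lower is below it. The 2 values come from the same arrays, and their spread is the difference between the genotypes. A member whose genotypes changed unequally was thus harder to call. The members called lower were of groups 1, 2 and 4. Hoxb1 changed by -0.97 in the null and by -1.21 in the wild type, Hoxd4 by -0.93 and -1.13, Hoxb2 by -0.45 and -0.44, and Hoxa2 by -0.31 and -0.32. Hoxd1, whose mean change was among the 3 lowest but was not called (adjusted p = 0.0770), changed by -0.21 and -0.83. Those higher were Hoxd13, Hoxa10, Hoxb13, Hoxa5, Hoxb6, Hoxa7, Hoxb5 and Hoxb3. Hoxb13 passed the filter through the null channels at E11.5 alone, the stage where it is high, and its E9.5 levels are only bounds. It was at least 1.83-fold higher at E11.5 in the null. In the wild type 1 of the 2 arrays measured it at E11.5, so its change there has no such bound.

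For some posterior genes the step between the stages was far larger in the null. Hoxd13 went from 9.23 and 9.56 to 10.17 and 10.32 in the wild type, a change of 0.85, and from 7.96 and 8.09 to 10.44 and 10.36 in the null, a change of 2.38. Hoxa10 changed by 0.65 in the wild type and by 1.59 in the null. Hoxc10, whose mean change of 0.81 was among the 3 largest but was not called (adjusted p = 0.106), changed by 0.22 in the wild type. In the null, where it was not well above background at E9.5, it was at least 2.62-fold higher at E11.5 (measured change 1.39). Hoxc9 changed by -0.15 in the wild type and by 1.19 in the null. The median change of the posterior members was -0.06 in the wild type and 0.60 in the null, and all 12 changed by more in the null. That order restates the ratios above, since both come from the same channels. Among these members, Hoxb13 and Hoxc12 passed the filter only in the null at E11.5. Their larger change in the null is thus not independent of the filter. In the wild type, the anterior median was -0.32 and the central median 0.05.

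**Figure D4:**
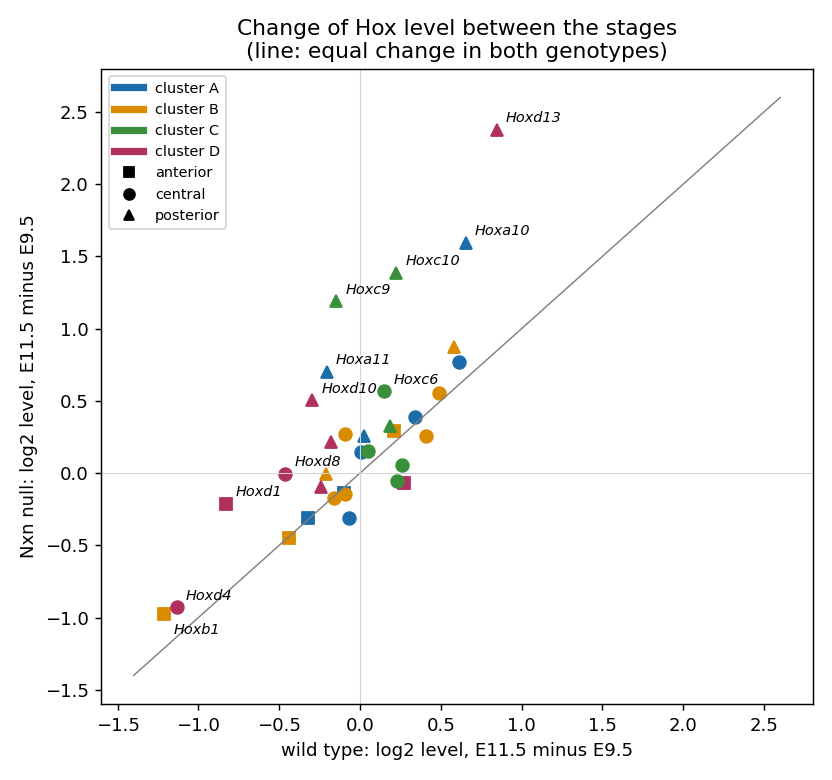
Change of log2 level from E9.5 to E11.5 for each of the 34 tested Hox genes, in the wild type (x axis) and in the Nxn null (y axis). Colours are clusters, squares anterior, circles central and triangles posterior genes, and the line marks equal change. Hoxd13, Hoxa10, Hoxc10 and Hoxc9 lie well above the line, and Hoxb1 and Hoxd4 lie at the lower left, above it.

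The genes that act on the Hox clusters were read from lists of known regulators. The shares of all genes to set beside the counts of these and the following lists are, for E9.5, 14.8% lower and 9.88% higher. For E11.5 they are 5.64% and 3.67%. Of 12 inducing signals and caudal factors tested, 3 were called lower and 1 higher at E9.5. Cdx2, a caudal factor that binds Hox clusters in the tail bud, was at -2.27 ± 0.13 (SD, n = 2 arrays, adjusted p = 1.36e-16). Cdx1, the other caudal factor tested, was at -0.08 and was not called, and Cdx4 was not tested. Tbx6 and T, T-box factors of presomitic and early mesoderm, were at -2.11 ± 0.13 and -0.77 ± 0.10. Cdx1, Cdx2 and T were well above background on 1 of the 2 null channels at E9.5. Wnt3a, a Wnt ligand of the tail bud, was called higher at E9.5 (0.55 ± 0.07) and at E11.5 (0.38 ± 0.07). At E11.5 Cdx2 (-0.16), Tbx6 (0.05) and T (0.07) were not called, and 2 of the 12 were called higher and 0 lower.

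Of 12 retinoic acid genes, 1 was called lower and 4 higher at E9.5, with a median of 0.07, and 1 lower and 1 higher at E11.5. None of the 3 hindbrain activators of anterior Hox genes was called at either stage. Of the 9 TALE homeodomain genes, whose proteins bind DNA with Hox proteins, 3 were called higher and 0 lower at E9.5. Pbx4 was the largest of these, with 0.39 ± 0.27 at E9.5 and 0.63 ± 0.36 at E11.5. Of 17 Polycomb genes, 2 were called lower and 1 higher at E9.5 and 0 at E11.5; Cbx7 was at -0.63 ± 0.43 at E9.5. Of 9 Trithorax genes, 0 were called at E9.5 and 1 was called higher at E11.5. The medians of the Polycomb and Trithorax lists at E9.5 were 0.03 and 0.09.

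Of 17 genes tested that lie beside the Hox clusters, 2 were called lower and 3 higher at E9.5, against 14.8% and 9.88% of all genes, with a median of -0.02. These counts are near those shares. Nfe2, a blood cell factor near cluster C, gave -0.53 ± 0.11 at E9.5 and -0.46 ± 0.10 at E11.5. Of 7 ParaHox and related homeobox genes, 1 was called lower and 2 higher at E9.5; Meox1 was at -0.53 ± 0.01 and at E11.5 at -0.23 ± 0.07.

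Markers of the places where posterior Hox genes are active were mixed at E9.5. Of 12 tail bud and presomitic mesoderm markers, 2 were called lower (T and Tbx6) and 1 higher, with a median of -0.08. Of 10 limb bud markers, 2 were called lower and 2 higher. Pitx1 and Tbx4, the hindlimb factors, were those lower. Pitx1 was at -1.14 ± 0.57. Tbx4 was not well above background in the null and was at least 1.64-fold lower (measured ratio -0.72 ± 0.11, adjusted p = 4.63e-08). This bound equals the measured mean ratio. At E11.5 they stood at -0.00 and 0.06 and were not called.

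Markers of other tissues also differed at E9.5. Those of the yolk sac were lower, those of trophoblast and decidua mixed, and those of neurons and of the forebrain and midbrain mostly higher. Their part in the Hox result was not tested. Of 14 yolk sac visceral endoderm markers, 13 were called lower and 0 higher, with a median of -3.04. Their summed log2 level was 14.03 and 14.31 in the null channels and 17.36 and 17.37 in the wild type, and each marker was well above background on at least 1 channel of each genotype. In the null S100g, Apoa4 and Ttr were so on 1 of the 2 channels. The lowest ratios were S100g at -4.73, Cubn at -4.25, Apob at -3.40 and Afp at -3.37. At E11.5 the median was -0.05, 3 were called lower, S100g and Apoa4 were not well above background in either genotype, and the summed levels were 16.27 and 16.28 in the null and from 16.27 to 16.41 in the wild type.

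Of 7 trophoblast and decidua markers tested, 3 were called lower and 4 higher at E9.5. Prl8a2, a placental hormone that no wild-type channel lifted well above background, was at least 5.59-fold higher in the null (measured ratio 2.64, adjusted p = 2.21e-17). Prl3d2 and Prl3d1, also placental hormones, were at 1.41 and 1.06, and Phlda2, an imprinted gene, at -2.20. The summed level of the list was from 12.48 to 12.64 in the null and from 12.85 to 12.99 in the wild type. Of 15 spinal cord and hindbrain neuron markers, 8 were called higher and 1 lower, with a median of 0.23, and Stmn3, Stmn2, Nefm and Tubb3 ranged from 0.53 to 0.57. Their summed level was 15.69 in the null on both arrays and from 15.37 to 15.42 in the wild type. Of 7 markers of the forebrain and midbrain, where Hox genes are silent, 5 were called higher and 0 lower, with a median of 0.24. Their summed level was from 13.73 to 13.81 in the null and from 13.57 to 13.74 in the wild type. At E11.5 the medians of these 3 lists were 0.02, 0.04 and 0.04.

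**Figure D5:**
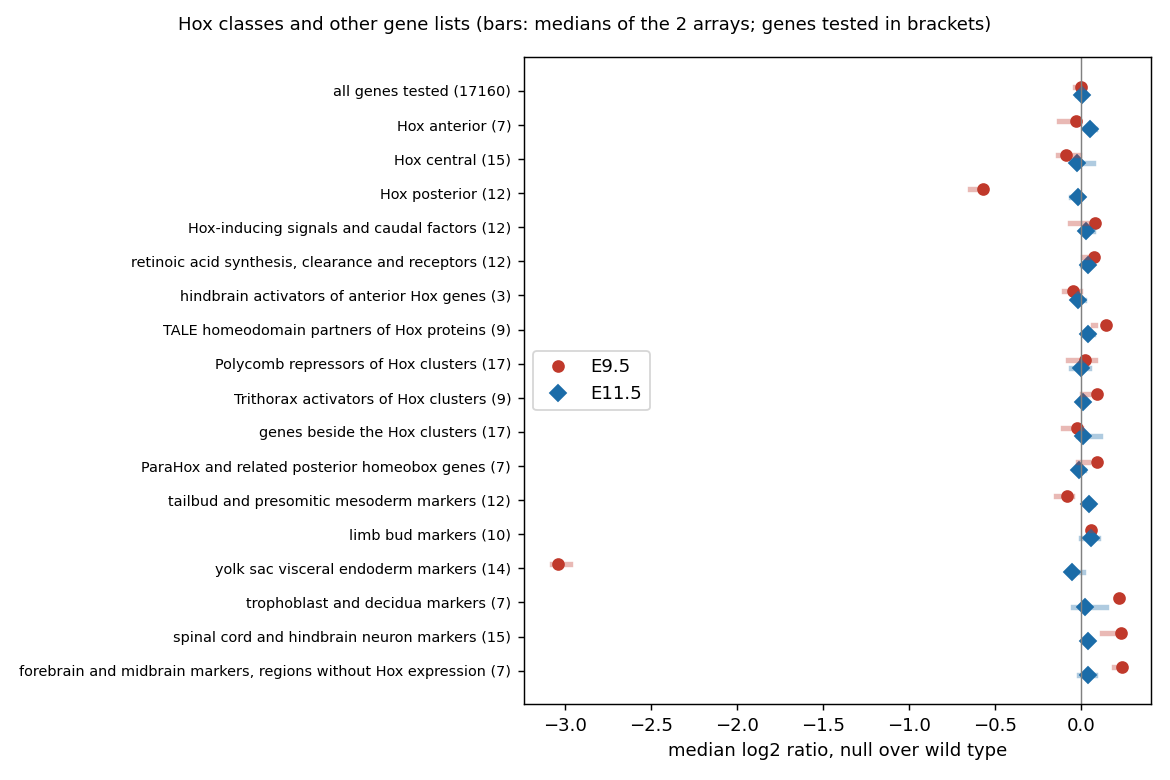
Median log2 ratio of Nxn-null over wild type (x axis) for all genes tested, the 3 Hox classes and 14 other gene lists, at E9.5 (circles) and E11.5 (diamonds), with bars between the medians of the 2 arrays. At E9.5 the posterior Hox genes lie at -0.57 and the yolk sac markers at -3.04, and at E11.5 the medians of all these lists lie between -0.05 and 0.06.

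The genes whose 8 single-channel levels were most like the mean of the 11 called posterior members were F2 (r = 0.997), Prim2 (r = 0.994) and Apoa2 (r = 0.991). These are Pearson correlations over 8 channels of 4 arrays, given as a description.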

How the data were processed

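Total RNA of NRX -/- and NRX +/+ embryos was amplified, labelled with Cy3 or Cy5 and hybridised to 4 arrays, 2 per stage, per the labels. The deposited scanner files hold spot intensity per channel on a linear scale, per the file headers. They also hold a log10 ratio of red over green processed signals, per the file headers. Agilent Feature Extraction wrote them, in version 9.1.3.1 per the file headers and 9.5.3.1 per the submitters' processing notes. The authors' deposited value table equalled that log10 ratio of processed signals, turned to null over wild type, in 99.995% to 100% of 40929 probes per array (tolerance 1e-04), with column medians of -0.0136, 0.0408, -0.0347 and 0.0210.

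From the deposited intensities, log2 ratios were computed with limma 3.58.1 in R 4.3.3 (data.table package 1.17.8): normexp with an offset of 50, which draws ratios of dim probes towards 0, then loess within arrays with control spots at weight 0, turned to null over wild type. Probes with an outlier mark (293) were left out, 24993 of 41174 were kept as above background, and the brightest probe stood for each of 17160 genes (5711 had several kept probes). Names came from RefSeq, assembly GRCm38.p6, with 22951 probes matched by accession, 6659 by symbol and 3109 by an older symbol. The other 8455 are named as in the files. The fit had coefficients for E9.5, E11.5 and dye, with 1 residual degree of freedom and 18.4 prior degrees of freedom. The test of an effect shared by both stages used the 2 stage averages, and that of E11.5 over E9.5 used single-channel log2 levels after Aquantile, with the 2 genotypes as replicates (2.85 prior degrees of freedom each). In simulated data of 17160 genes, the fit recovered 100% of changes of 0.5, 1, 2 and 3 (log2) at E9.5, with 3.85% false calls. The stage-average fit recovered 0%, 98%, 96% and 100%, with 5.16% false calls, and the stage fit 2%, 84%, 100% and 98%, with 10.1% false calls. These rates hold for the simulated data and are not rates of wrong or missed calls on the real arrays. There, the count of members lower at E9.5 went from 16 to 6 without the dye term. Figures used Python 3.11.15 and matplotlib 3.10.9.

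A gene of these clusters is not reported here and enters no count or median of members; every other member is accounted for. Values per array are given for called members with a mean ratio of 0.5 or more in size, for called members against the majority of their class and for the ends of each cluster. List genes are named from a size of 0.5, at most 4 per list, and Cdx1 and Cdx4 are named besides. For the stages, the called members and the 3 largest and 3 smallest changes are named. The members and lists were chosen with earlier results of these data known. Alternatives were another offset, the Feature Extraction log ratio, median centring, other probe and filter rules, no dye term, other moderation, other normalization between arrays and leaving out each array. Precision is limited by having 2 arrays per stage.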

Additional observations from a re-analysis of the deposited data

Results flagged for a closer look

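The difference between the stages was itself tested for every member, and 13 ratios of null over wild type differed between E9.5 and E11.5 beyond the spread between arrays (limma, adjusted over all genes). Each value is the log2 ratio at E11.5 minus that at E9.5. In posterior genes it was 1.53 for Hoxd13, 1.34 for Hoxc9, 1.16 for Hoxc10, 0.94 for Hoxa10, 0.91 for Hoxa11, 0.80 for Hoxd10, 0.39 for Hoxd11 and 0.29 for Hoxb13. At E9.5 neither genotype had Hoxb13 well above background, nor did the null have Hoxc10, so the sizes of these 2 differences are not fully measured. In central genes it was 0.46 for Hoxd8, 0.41 for Hoxc6, 0.37 for Hoxb7 and -0.28 for Hoxc4. In the anterior gene Hoxd1 it was 0.61. The adjusted p ran from 6.79e-11 for Hoxd13 to 0.0359 for Hoxc4. With 2 arrays per stage, no group was large enough to test for an array apart from the rest.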

How the results depend on the processing

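No paired analysis was possible because the labels carry no replicate numbers that pair samples across stages, and both genotypes of a pair already share an array. The Hox counts at E9.5 (16 lower, 4 higher) became 8 lower and 0 higher with median centring, and 6 and 0 without the dye term. The count higher was 2 with an offset of 10, 1 with no filter and 1 with the Feature Extraction log ratio. At E11.5 the member called lower was lost (0) with the Feature Extraction log ratio, without the dye term and with trend and robust moderation. The member called higher was lost (0) under these, with an offset of 10, with median centring, with the mean of all probes and with no filter. Ratios that were larger at E11.5 numbered 6 with the log ratio of Feature Extraction, 6 with median centring and 3 without the dye term, in place of 12. Those that were smaller numbered 0 under these, with an offset of 10 and with no filter, and 2 with trend and robust moderation, in place of 1. Members 2-fold lower at E9.5 numbered 7 with the Feature Extraction log ratio in place of 3.

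The posterior median at E9.5 was -0.68 with an offset of 10, -0.62 with median centring, -0.95 with both genotypes above background and -1.01 with the Feature Extraction log ratio. At E9.5 the median of cluster D was -0.48 with an offset of 10 and -0.61 with the Feature Extraction log ratio, which gave -1.01 for cluster C, and median centring gave -0.020 for cluster A and -0.054 for cluster B. At E11.5 the Feature Extraction log ratio gave 0.18 for cluster D and 0.093 for anterior members. Median centring at E11.5 gave 0.12 for anterior, 0.062 for central and 0.064 for posterior members, and 0.082, 0.10 and 0.010 for clusters A, B and C. From E9.5 to E11.5 in the wild type, the posterior median was -0.00738 with the mean of all probes and 0.082 without normalization between arrays, which gave 0.14 for central members. With Feature Extraction signals set to the 75th percentile, the anterior median was -0.63 and 3 members were higher at E11.5 in place of 8. Hoxd3 at E9.5 was -0.54 with the Feature Extraction log ratio. The causes of these shifts were not tested, except that the stricter filter leaves fewer members.

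Leaving out each array in turn gave 6 to 7 lower and 0 to 1 higher members at E9.5, 0 to 1 lower and 0 to 0 higher at E11.5, and 2 to 4 positive and 0 to 1 negative changes of the ratio. Members 2-fold lower numbered 3 to 5 at E9.5 and 0 to 1 at E11.5, and 2-fold higher 0 to 1 and 0 to 0. The shared effect was called for 0 to 0 members, with 2 to 5 at an unadjusted p under 0.05. Between the stages 6 to 9 members were higher and 3 to 5 lower. Medians at E9.5 ranged from -0.13 to -0.026 for anterior, -0.14 to -0.013 for central and -0.65 to -0.57 for posterior members, and from -0.15 to -0.087, -0.15 to -0.11, -0.45 to -0.14 and -0.51 to -0.40 for clusters A to D. At E11.5 they ranged from 0.042 to 0.081, -0.024 to 0.073 and -0.058 to -0.016 for the classes, and from -0.036 to 0.047, -0.0096 to 0.033, -0.12 to -0.022 and 0.037 to 0.11 for the clusters. In the wild type the stage medians ranged from -0.43 to -0.31, 0.054 to 0.11 and -0.072 to 0.027. Hoxd3 at E9.5 was -0.58 without E9.5 replicate 1 and 1.70 without replicate 2.

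Signal over background limits some members: Hoxc10, Hoxb13 and Hoxc12 were at or below background in null embryos at E9.5, and Hoxa13, Hoxc13 and Hoxd12 gave no test.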

Other observations

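Some members had a second probe above background that read differently from the brighter probe that stood for the gene. For Hoxb9, a probe matched to another transcript gave -0.47 at E9.5 and -0.33 at E11.5, where the main probe gave -0.15 and 0.06. For Hoxb6 the second probe gave 0.41 and -0.11, where the main probe gave -0.09 and -0.02. For Hoxd9 it gave -0.36 and 0.03, where the main probe gave -0.22 and -0.08. For Hoxa3 the dimmer probe gave 2.50 and -0.22 on the 2 E9.5 arrays, where the main probe gave 0.15 and -0.01.

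The GC content of the member promoter windows ranged from 39.7% for Hoxd4 to 81.0% for Hoxa13, with a median of 57.6%, against a median of 52.7% over all windows of the table.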
